A study of Mus musculus with 6 samples.

Results

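The genes described here are 42 genes of DNA replication and mitosis, found by their symbols among the 26012 genes measured by RNA-seq in infarcted mouse ventricles, 18 that act in replication and 24 that act in mitosis. They were listed by function and not by how they differed between the groups of this experiment, though earlier results of these data were known. All 6 mice were male C57BL/6 mice, 8 weeks old at the time of myocardial infarction (MI), which was made by tying the left anterior descending coronary artery. Each heart was injected at the operation with 10 μg of a miRNA mimic, a synthetic RNA that acts in the cell as a mature miRNA. In 3 hearts this was a control mimic, and in 3 it was miR-19a/19b mimic. The ventricles were collected 4 days after MI. The comparison asks whether the mimics changed the level of these transcripts in the infarcted heart. The injection targets no single cell type, and the whole ventricular tissue was sequenced.

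Cells license their replication origins by loading the ring of MCM proteins, fire them with the help of Cdc45 and the GINS complex, and copy the DNA with polymerases held on the strand by Pcna. Later in the cycle, a separate set of genes condenses the chromosomes, attaches them to the spindle, pulls them apart and divides the cell. Most cardiomyocytes of the adult mouse have left the cell cycle, while macrophages, fibroblasts and endothelial cells divide in the days after an infarct. In bulk tissue, more cells in cycle and more transcript per cell cannot be told apart.

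miR-19a and miR-19b act through the same seed, the bases with which a miRNA pairs to its target, and so their sequences are shown first. The mature sequences, from RefSeq (GRCm38), have 23 bases each, and differ at 1 position, position 11 from the 5′ end. The seed, bases 2 to 8, is in capitals.
mmu-miR-19a-3p (chr14:115044048-115044070, plus strand): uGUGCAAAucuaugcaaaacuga
mmu-miR-19b-3p (chr14:115044358-115044380, plus strand): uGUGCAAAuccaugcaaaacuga
A second locus, at chrX:52741991-52742013 on the minus strand, carries the same mature miR-19b.

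Matches to this seed were searched in the longest annotated 3′ UTR of each gene, as either heptamer (TTTGCAC or TTGCACA) or as both joined in the 8-mer (TTTGCACA), on the strand of the transcript. A match was found in 7 of the 42 genes (16.7%), against 19.3% of the 15866 tested genes that have a 3′ UTR in the annotation. The median 3′ UTR of the 42 genes had 799 bases, and that of all these genes had 1261 bases. Of the replication genes, 5 of 18 carried a match (27.8%), namely Cdt1, Pola1, Rrm1, Rrm2 and Tyms. Of the mitosis genes, 2 of 24 did (8.3%), Ndc80 and Prc1. The matches of Rrm2, Ndc80 and Prc1 were 8-mers, shown here in capitals within their surroundings, and the other 4 were 7-mers. Coordinates are on GRCm38.
Rrm2 (chr12:24713644-24713651, 3′ UTR): aaaattggcacTTTGCACAcacacacacat
Ndc80 (chr17:71513976-71513983, 3′ UTR): ctctcggaagcTTTGCACAtgagagagcaa
Prc1 (chr7:80316042-80316049, 3′ UTR): gagtcagcaacTTTGCACAtctacaagtta
The genes with an 8-mer had log2 fold changes of 0.03 for Rrm2, 0.06 for Ndc80 and 0.03 for Prc1, as miR-19a/19b mimic over control mimic. The median log2 fold change was 0.03 over the 7 genes with a match and 0.12 over the 35 without one. Over all genes with a 3′ UTR it was -0.03 with a match and 0.01 without one. These are descriptions, and a match is not a shown target. The 3′ UTR in which Ndc80 has its match is 3575 bases long, more than the 2201 bases of its whole deposited gene model. That model thus cannot hold this 3′ UTR in full, and whether it holds the match was not tested.

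The promoters of replication and mitosis genes held different motifs, which is given here as a description with no test. RefSeq promoters, from 250 bases before to 50 bases after the start of the gene (GRCm38.p6), were given for 37 of the 42 genes. Motifs were searched on both strands. They were the E2F site (TTTCCCGC, TTTGGCGC, TTTCGCGC or TTTGCCGC), named after the factors that switch on genes for S phase, the CCAAT box (CCAAT), which NF-Y binds, and the cell cycle genes homology region or CHR (TTTGAA or TTTAAA), through which genes of mitosis are held back in resting cells. An E2F site stood in the promoters of 8 of 16 replication genes (50%) and 0 of 21 mitosis genes, and in 2.6% of all 27025 genes of the promoter table. A CHR stood in the promoters of 19 of 21 mitosis genes (90.5%) and 6 of 16 replication genes (37.5%), against 30.6% of all genes. Within 50 bases of the start, a CHR was found in 16 of 21 mitosis genes (76.2%), 3 of 16 replication genes (18.8%) and 9.5% of all genes. The CCAAT box was about as frequent in both sets, at 75% and 76.2%, against 41.1% of all genes. TTTAAA reads the same on both strands, and E2F matches on opposite strands can overlap, as those of Mcm5 do. These are matches of letters and not shown sites of binding.

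**Figure D1:**
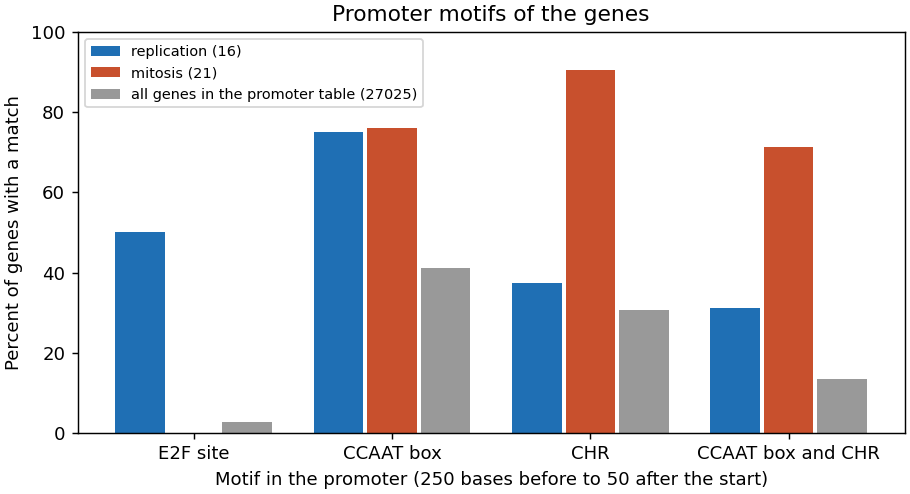
Share of genes (percent, vertical axis) whose promoter holds each motif, for the 16 replication genes and 21 mitosis genes with a promoter sequence and for all 27025 genes of the table. The E2F site was found in 50% of the replication genes and in 0 mitosis genes, and the CHR in 90.5% of the mitosis genes.

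Promoters of 3 replication and 3 mitosis genes are shown as examples, with every motif match in capitals. Mcm5 and Cdc6 have E2F sites, Cdc45 has none, and Cenpa, Plk1 and Cdc20 have both CHRs and CCAAT boxes. Mcm5 and Cdc45 also have both of these. A CHR and a CCAAT box stood together in 5 of 16 replication genes (31.2%), 15 of 21 mitosis genes (71.4%) and 13.4% of all genes.
Mcm5 (chr8:75109259-75109558, plus strand): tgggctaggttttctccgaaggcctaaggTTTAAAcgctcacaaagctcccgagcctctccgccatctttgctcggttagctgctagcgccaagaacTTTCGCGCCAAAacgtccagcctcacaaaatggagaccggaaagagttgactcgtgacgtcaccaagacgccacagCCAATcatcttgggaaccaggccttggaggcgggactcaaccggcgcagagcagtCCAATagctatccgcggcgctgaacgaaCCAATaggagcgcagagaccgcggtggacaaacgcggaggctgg
Cdc6 (chr11:98907901-98908200, plus strand): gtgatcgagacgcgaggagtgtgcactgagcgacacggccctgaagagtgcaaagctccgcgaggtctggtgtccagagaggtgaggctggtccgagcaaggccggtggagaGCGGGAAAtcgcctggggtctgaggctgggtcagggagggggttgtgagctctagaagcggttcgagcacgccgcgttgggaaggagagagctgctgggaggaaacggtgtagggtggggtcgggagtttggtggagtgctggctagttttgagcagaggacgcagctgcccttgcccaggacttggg
Cdc45 (chr16:18811923-18812222, minus strand): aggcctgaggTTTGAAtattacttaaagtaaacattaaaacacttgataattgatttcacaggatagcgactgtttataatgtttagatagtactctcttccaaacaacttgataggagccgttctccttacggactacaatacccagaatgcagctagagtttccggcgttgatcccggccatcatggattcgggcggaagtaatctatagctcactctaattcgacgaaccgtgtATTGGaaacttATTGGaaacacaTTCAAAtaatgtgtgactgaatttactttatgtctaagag
Cenpa (chr5:30666636-30666935, plus strand): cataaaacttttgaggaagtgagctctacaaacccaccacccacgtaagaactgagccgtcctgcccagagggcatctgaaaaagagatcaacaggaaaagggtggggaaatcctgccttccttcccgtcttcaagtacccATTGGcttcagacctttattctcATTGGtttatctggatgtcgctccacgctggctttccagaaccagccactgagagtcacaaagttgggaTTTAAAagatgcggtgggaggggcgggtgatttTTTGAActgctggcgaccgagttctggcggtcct
Plk1 (chr7:122159185-122159484, plus strand): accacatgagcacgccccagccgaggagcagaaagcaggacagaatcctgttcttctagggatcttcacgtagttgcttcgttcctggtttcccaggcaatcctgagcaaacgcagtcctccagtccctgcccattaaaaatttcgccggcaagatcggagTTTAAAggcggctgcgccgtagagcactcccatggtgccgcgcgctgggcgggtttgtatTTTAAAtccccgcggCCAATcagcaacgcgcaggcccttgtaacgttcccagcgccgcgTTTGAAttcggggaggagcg
Cdc20 (chr4:118437294-118437593, minus strand): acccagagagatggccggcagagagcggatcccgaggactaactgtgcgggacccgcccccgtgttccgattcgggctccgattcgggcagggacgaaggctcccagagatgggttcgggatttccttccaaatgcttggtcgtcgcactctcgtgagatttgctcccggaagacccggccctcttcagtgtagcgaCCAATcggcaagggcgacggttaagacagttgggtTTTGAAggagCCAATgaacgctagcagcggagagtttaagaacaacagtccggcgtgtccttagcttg
Positions are counted from the RefSeq start, which can differ from the deposited start of a gene. In the Mcm5 promoter the E2F letters TTTCGCGC begin 153 bases before the start, and in that of Cdc6 the letters GCGGGAAA begin 138 bases before it. The whole Cdc6 stretch shown lies inside the deposited Cdc6 gene, which starts at base 98907801. In the Cdc20 promoter a CHR begins 18 bases before the start and lies between CCAAT boxes at 53 and 8 bases before it. In the Cenpa promoter CHRs begin 17 bases before and 16 bases after the start, and the CCAAT boxes lie further upstream, at 109 and 86 bases.

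Each heart gave 19398196 to 23645308 reads on genes. The values below are normalized counts, the reads of a gene divided by the size factor of its library. Each of the 42 genes had at least 151 reads in every heart, so that counting error alone was at most 8.14% of a value, and all 42 passed the filter on low values. miR-19a/19b mimic replicate 3 stood apart from its group. Its counts differed from those of the other 2 miR-19a/19b mimic hearts with a chi-square per degree of freedom of 135 and 121, where the other pairs of replicates gave 10.3 to 26.6. The labels do not say more about the hearts than their group and replicate number. Mitochondrial transcripts made up 3.18% of its reads and 4.18% to 6.93% of those of the other hearts. The cardiomyocyte markers, 12 of 12 present, came to a summed normalized count of 325308 in this heart, against 536932 to 693604 in the control mimic hearts and 853391 to 960428 in the other miR-19a/19b mimic hearts. miR-19a/19b mimic replicate 1 also differed, with 3543 summed normalized counts of 14 skeletal muscle genes, against 37.1 to 76.1 in the other hearts.

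None of the 42 genes passed the test between the groups, and 40 of them were highest in the same heart. The groups were compared by limma on a log2 scale, after adding 1 to each normalized count, for the 21126 genes that averaged 1 or more, and p-values were adjusted over all of these. The p-value printed beside a single gene is that of a two-sided exact permutation test over the 6 hearts, which cannot go below 0.1, and the limma adjusted p of each of the 42 genes was 0.9996. At an adjusted p under 0.05, 0 of the 42 genes and 0 of all genes (0%) were called, and the smallest adjusted p of any gene was 0.396, while 848 of all genes had an unadjusted p under 0.05. At an unadjusted p under 0.05, 0 of the 42 genes were higher or lower, where 1.39% of all genes were higher with miR-19a/19b mimic and 2.63% were lower. By edgeR's quasi-likelihood test, DESeq2's Wald test and limma-voom, 0 of the 42 genes were called at an adjusted or an unadjusted p under 0.05. These tests in turn put 3.96%, 2.74% and 3.89% of all genes under an unadjusted p of 0.05, and 0, 29 and 0 genes under an adjusted p of 0.05. The log2 fold change was above 0 for 37 of the genes and below 0 for 5. Its median was 0.10 over the replication genes and 0.12 over the mitosis genes, and 0.0041 over all genes tested. The standard errors of single genes lay between 0.12 and 0.22 on the log2 scale. All 42 of the 95% intervals held 0, and they reached 0.28 to 0.50 to either side of the estimate.

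**Figure D2:**
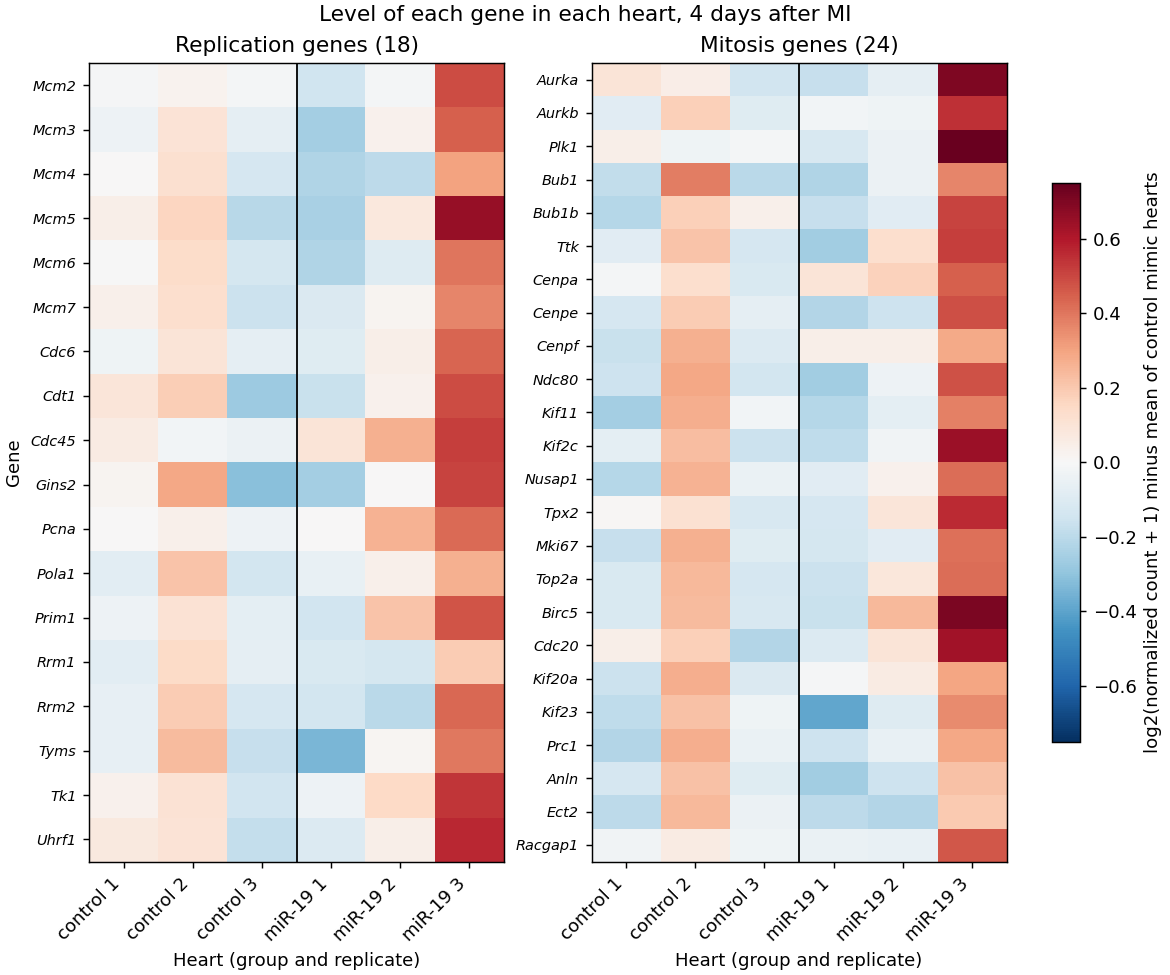
Level of each gene in each heart, as log2(normalized count + 1) minus the mean of the control mimic hearts (colour, log2 scale), with replication genes on the left and mitosis genes on the right. The column of miR-19a/19b mimic replicate 3 is red throughout and holds the highest value of 40 of the 42 genes, and 32 of those 40 had control mimic replicate 2 as the next highest heart.

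Among the genes that license origins, the MCM helicase subunits and their loaders Cdc6 and Cdt1, 0 of 8 passed the test, and the median log2 fold change was 0.10. Mcm5 (chr8:75109528-75128439), the most abundant of them per kilobase, had normalized counts of 1026, 1114 and 861.4 in control mimic replicates 1, 2 and 3 and of 841.4, 1051 and 1564 in those numbered 1, 2 and 3 with miR-19a/19b mimic. The highest and the lowest value were thus both in miR-19a/19b mimic hearts, and the groups overlapped. The means were 1000.2 ± 128.0 normalized counts for control mimic against 1152 ± 371.7 for miR-19a/19b mimic (SD, n = 3), with a log2 fold change of 0.16 (SE 0.21, exact permutation p = 0.7). The values of the other licensing genes overlapped between the groups too. Their log2 fold changes were 0.11 for Mcm2, 0.08 for Mcm3, -0.04 for Mcm4, 0.03 for Mcm6, 0.09 for Mcm7, 0.13 for Cdc6 and 0.12 for Cdt1. Mcm4 was the only licensing gene below 0. All 8 were highest in miR-19a/19b mimic replicate 3 and 6 of 8 were lowest in miR-19a/19b mimic replicate 1, from the same group.

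The genes of origin firing and DNA synthesis had the highest median of the replication roles, at 0.18, with 5 of 5 above 0. Cdc45 (chr16:18780447-18811987), which completes the active helicase with the MCM ring and the GINS complex, had normalized counts of 288.5, 272.3 and 268.1 in control mimic replicates 1, 2 and 3 and of 294.8, 333.0 and 396.8 in those numbered 1, 2 and 3 with miR-19a/19b mimic. It was the 1 gene of the 42 whose groups did not overlap, where 3.90% of all genes were apart with the miR-19a/19b mimic hearts higher and 5.30% with them lower. Scaled to total reads, the groups of Cdc45 overlapped. Its means were 276.3 ± 10.7 normalized counts for control mimic against 341.5 ± 51.5 for miR-19a/19b mimic (SD, n = 3), with a log2 fold change of 0.29 (SE 0.13, exact permutation p = 0.1). This p is the smallest that 3 hearts against 3 can give. Pcna (chr2:132249162-132253314), the clamp that holds the polymerases on DNA, was the most abundant of the 42 genes per kilobase of gene model, with a mean of 952.7 normalized counts per kilobase. It had normalized counts of 2098, 2152 and 2042 in control mimic replicates 1, 2 and 3 and of 2102, 2507 and 2817 in those numbered 1, 2 and 3 with miR-19a/19b mimic. Its lowest value was that of a control mimic heart, and miR-19a/19b mimic replicate 1 lay among the control mimic hearts. The log2 fold change of Pcna was 0.23 (SE 0.12, exact permutation p = 0.2). The primase subunit Prim1 had 264.3 ± 18.3 normalized counts for control mimic against 303.6 ± 63.4 for miR-19a/19b mimic (SD, n = 3) and a log2 fold change of 0.18. The GINS subunit Gins2 and the polymerase subunit Pola1 had log2 fold changes of 0.09 and 0.08.

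The genes that supply nucleotides had log2 fold changes from -0.02 for the ribonucleotide reductase subunit Rrm1 to 0.22 for Tk1, and 0 of 4 passed the test. Tk1 (chr11:117815526-117826092), the thymidine kinase of S phase, had normalized counts of 812.4, 857.8 and 718.4 in control mimic replicates 1, 2 and 3 and of 772.5, 882.5 and 1151 in those numbered 1, 2 and 3 with miR-19a/19b mimic. Replicate 1 with miR-19a/19b mimic lay within the range of the control mimic hearts and the other 2 lay above it, and the log2 fold change was 0.22 (SE 0.15, exact permutation p = 0.4). Rrm1 (chr7:102441695-102469771), with 422.4 normalized counts per kilobase the second most abundant replication gene, had normalized counts of 1605, 1868 and 1619 in control mimic replicates 1, 2 and 3 and of 1563, 1544 and 1931 in those numbered 1, 2 and 3 with miR-19a/19b mimic. Its log2 fold change was -0.02 (SE 0.12, exact permutation p = 0.7), and the upper end of its 95% interval, 0.26, was the lowest of the 42 genes. Rrm2, the subunit made in S phase, and the thymidylate synthase Tyms had log2 fold changes of 0.03 and 0.02. Uhrf1, which keeps DNA methylation in place on newly copied strands, had 897.8 ± 93.5 normalized counts for control mimic against 1027 ± 261.1 for miR-19a/19b mimic (SD, n = 3) and a log2 fold change of 0.17.

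**Figure D3:**
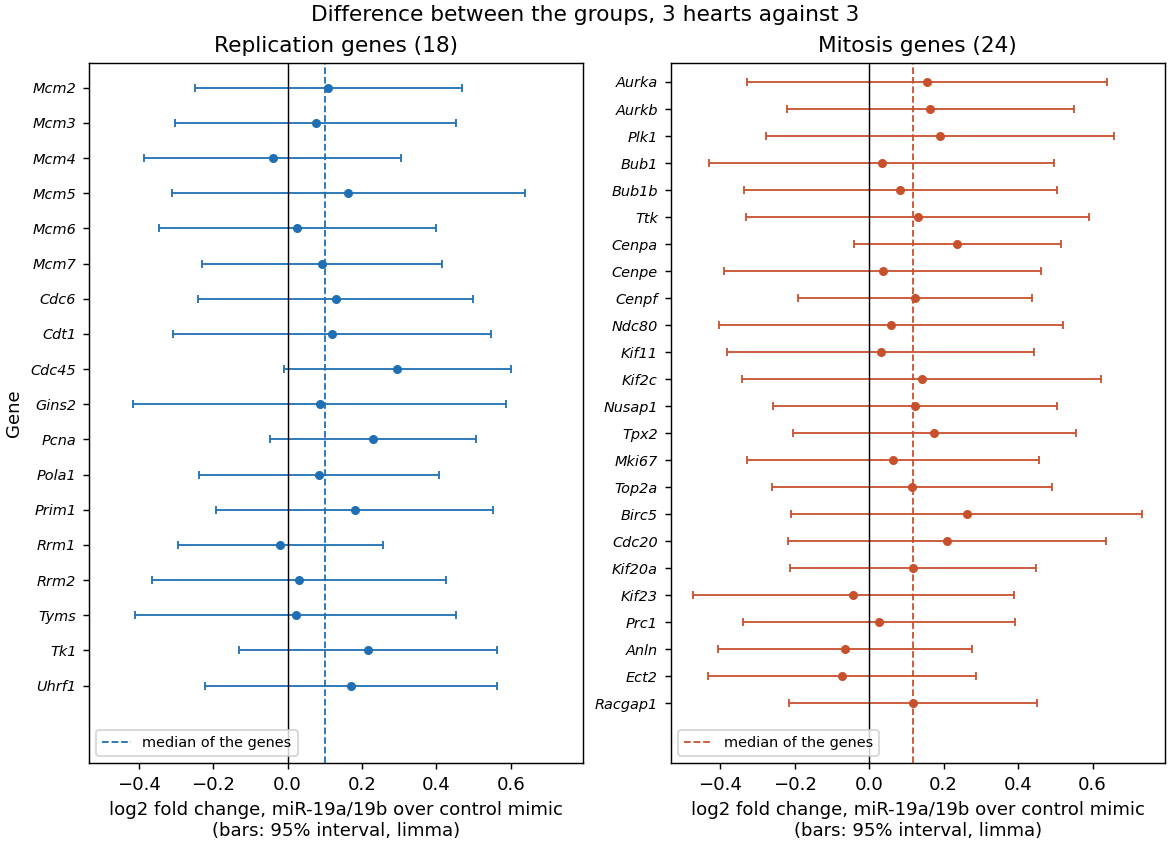
The log2 fold change of each gene (point, miR-19a/19b mimic over control mimic) with its 95% interval from limma (bar), for the replication genes on the left and the mitosis genes on the right, with the median of each set as a dashed line. All 42 intervals cross 0, and that of Cdc45 comes nearest to leaving it, with a lower end of -0.01.

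For the mitotic kinases the log2 fold changes had a median of 0.14, and 6 of 6 were above 0 with 0 past the test. Aurkb (chr11:69045647-69051664), the kinase of the chromosomal passenger complex, which is also used as a stain for dividing cells, had normalized counts of 439.9, 528.0 and 438.2 in control mimic replicates 1, 2 and 3 and of 460.5, 455.7 and 682.9 in those numbered 1, 2 and 3 with miR-19a/19b mimic. miR-19a/19b mimic replicates 1 and 2 lay within the range of the control mimic hearts. The log2 fold change of Aurkb was 0.16 (SE 0.17, exact permutation p = 0.5). Plk1 (chr7:122159439-122169873), which drives entry into mitosis and the maturation of centrosomes, had normalized counts of 652.1, 618.7 and 624.1 in control mimic replicates 1, 2 and 3 and of 579.9, 611.4 and 1055 in those numbered 1, 2 and 3 with miR-19a/19b mimic. In miR-19a/19b mimic replicate 3 it was 1.62 times the next highest heart, the widest such gap of the 42 genes, while the other 2 lay below every control mimic heart. The means of Plk1 were 631.6 ± 17.9 normalized counts for control mimic against 748.6 ± 265.5 for miR-19a/19b mimic (SD, n = 3), with a log2 fold change of 0.19 (SE 0.21, exact permutation p = 1). The log2 fold changes were 0.16 for Aurka, the kinase of the spindle poles, 0.03 for Bub1, 0.08 for Bub1b and 0.13 for Ttk, which keep the spindle checkpoint. Bub1 was the 1 kinase highest in control mimic replicate 2.

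Cenpa, the histone that marks centromeres, had the smallest limma p of the mitosis genes. Cenpa (chr5:30666777-30674830) had normalized counts of 1077, 1191 and 1008 in control mimic replicates 1, 2 and 3 and of 1163, 1226 and 1484 in those numbered 1, 2 and 3 with miR-19a/19b mimic. The highest control mimic heart lay between the lowest and the middle miR-19a/19b mimic heart. Its means were 1092 ± 92.2 normalized counts for control mimic against 1291 ± 170.2 for miR-19a/19b mimic (SD, n = 3), with a log2 fold change of 0.24 (SE 0.12, exact permutation p = 0.2). The kinetochore genes Cenpe, Cenpf and Ndc80 had log2 fold changes of 0.04, 0.12 and 0.06. Of the genes that build the spindle, Kif11, Kif2c, Nusap1 and Tpx2, 4 of 4 were above 0 and 0 passed the test. Their log2 fold changes were 0.03, 0.14, 0.12 and 0.17 in that order.

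For both genes of mitotic chromosomes, Mki67 and Top2a, the groups overlapped. Mki67 (chr7:135689788-135716379), the gene of the proliferation marker Ki-67, which coats mitotic chromosomes, had normalized counts of 2106, 2856 and 2224 in control mimic replicates 1, 2 and 3 and of 2168, 2235 and 3159 in those numbered 1, 2 and 3 with miR-19a/19b mimic. Control mimic replicate 2 and miR-19a/19b mimic replicate 3 were high, and the other 4 hearts lay within a narrow range of each other. The log2 fold change of Mki67 was 0.06 (SE 0.17, exact permutation p = 0.6). Top2a (chr11:98992943-99024189), the topoisomerase that untangles sister DNA, had normalized counts of 2139.7, 2746 and 2124 in control mimic replicates 1, 2 and 3 and of 2073, 2462 and 3102 in those numbered 1, 2 and 3 with miR-19a/19b mimic, and a log2 fold change of 0.11 (SE 0.17, exact permutation p = 0.7).

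The survivin gene Birc5 and the anaphase activator Cdc20 had the highest median of the mitosis roles, at 0.24. Birc5 (chr11:117849251-117855743), a member of the passenger complex, had normalized counts of 530.5, 678.3 and 528.8 in control mimic replicates 1, 2 and 3 and of 513.2, 680.4 and 939.6 in those numbered 1, 2 and 3 with miR-19a/19b mimic. The lowest heart and the highest heart were both miR-19a/19b mimic hearts. The means of Birc5 were 579.2 ± 85.8 normalized counts for control mimic against 711.1 ± 214.9 for miR-19a/19b mimic (SD, n = 3), with a log2 fold change of 0.26 (SE 0.21, exact permutation p = 0.6). Cdc20 (chr4:118432901-118437352), which activates the anaphase-promoting complex, was the most abundant mitosis gene per kilobase, at 489.2 normalized counts per kilobase. It had normalized counts of 859.9, 942.7 and 716.6 in control mimic replicates 1, 2 and 3 and of 777.9, 892.8 and 1293 in those numbered 1, 2 and 3 with miR-19a/19b mimic, and a log2 fold change of 0.21 (SE 0.19, exact permutation p = 0.5).

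The genes of the spindle midzone and of cytokinesis came last, with 3 of 6 above 0, a median log2 fold change of -0.01 and a mean of 0.01. Ect2, the exchange factor that turns on RhoA at the division plane, had 401.1 ± 63.1 normalized counts for control mimic against 381.7 ± 64.8 for miR-19a/19b mimic (SD, n = 3), with a log2 fold change of -0.07. Anln, the scaffold of the contractile ring, and Kif23, a motor of the midzone, had log2 fold changes of -0.06 and -0.04. Kif20a, Prc1 and Racgap1 had 0.12, 0.03 and 0.12. Ect2 and Bub1 were the 2 genes of the 42 that were highest in control mimic replicate 2 and not in miR-19a/19b mimic replicate 3.

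The replication and mitosis genes varied together from heart to heart, and the difference between the 2 sets was small beside that variation. Taken as the mean over the 18 replication genes of log2(normalized count + 1), less the mean of the control mimic hearts, the level was -0.0016, 0.13 and -0.13 in control mimic replicates 1, 2 and 3. In the hearts with miR-19a/19b mimic it was -0.14, 0.03 and 0.44. The same mean over the 24 mitosis genes was -0.11, 0.21 and -0.09 in the control mimic hearts, and -0.15, -0.01 and 0.46 in the miR-19a/19b mimic hearts. Both sets were thus lowest in miR-19a/19b mimic replicate 1 and highest in miR-19a/19b mimic replicate 3, with control mimic replicate 2 next. The mitosis mean less the replication mean was -0.11, 0.07 and 0.04 in the control mimic hearts and -0.01, -0.04 and 0.02 in the miR-19a/19b mimic hearts, and the groups overlapped. The median log2 fold changes of the 2 sets differed by 0.02. Within the groups, the heart-by-heart difference ran from -0.11 to 0.07 with control mimic and from -0.04 to 0.02 with miR-19a/19b mimic. Each mean alone spread more between hearts of 1 group (pooled SD 0.23 for replication and 0.26 for mitosis), but the sets share their hearts. The sign of the difference between the medians changed with 4 of the 6 hearts left out in turn, and with edgeR.

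The excess over the control mimic hearts rested on miR-19a/19b mimic replicate 3. All 42 genes lay above their control mimic mean in this heart, 21 of 42 did in replicate 2 and 4 of 42 in replicate 1. It was the highest heart for 40 of the 42 genes (95.2%), where it was the highest for 22.7% of all genes tested. The median ratio to the next highest heart was 1.20 over these 40 genes. Without it the median log2 fold change was -0.07 for the replication genes and -0.10 for the mitosis genes, 8 of 42 genes were above 0, and 0 of the 42 were called at an adjusted or an unadjusted p under 0.05, where 2.58% of all genes had an adjusted and 14.5% an unadjusted p under 0.05. The 8 genes above 0 without it were Cdc45, Pcna, Prim1, Tk1, Cenpa, Cenpf, Birc5 and Kif20a. miR-19a/19b mimic replicate 1 also decided values. Without this heart the medians were 0.24 and 0.21, and 6 of 42 genes were higher at an unadjusted p under 0.05, where 1.35% of all genes were, with 0 at an adjusted p under 0.05. These 6 were Cdc45, Pcna, Prim1, Tk1, Cenpa and Birc5. Without control mimic replicate 1 the mitosis median was 0.04, without control mimic replicate 2 the medians were 0.18 and 0.21, and without control mimic replicate 3 they were 0.03 and 0.06. Without miR-19a/19b mimic replicate 2 they were 0.16 and 0.15.

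**Figure D4:**
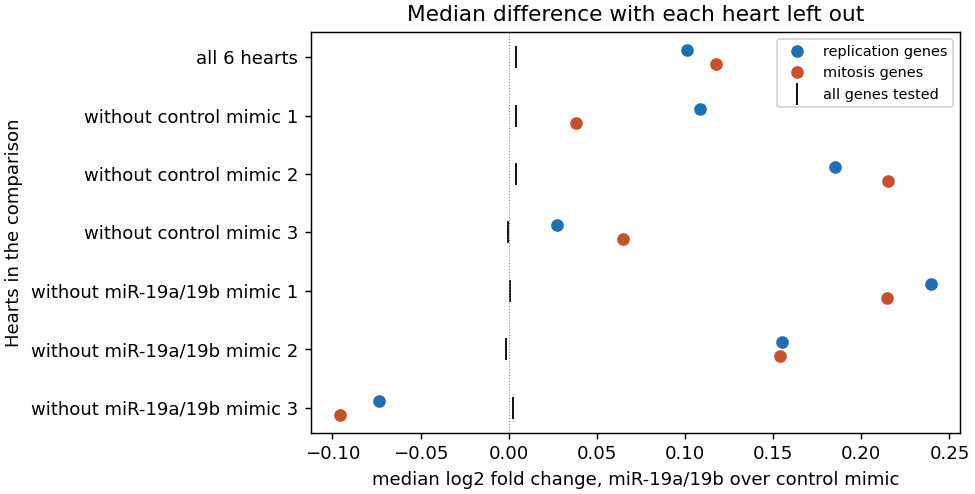
Median log2 fold change (horizontal axis, miR-19a/19b mimic over control mimic) of the replication genes, the mitosis genes and all genes tested, with all 6 hearts and with each heart left out in turn. Both sets lie at 0.10 and 0.12 with all hearts and fall below 0 without miR-19a/19b mimic replicate 3, at -0.07 and -0.10.

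Of the marker lists of cell types, those of macrophages and lymphocytes were highest in the heart of each group where both gene sets were highest. The cardiomyocyte markers and the erythroid genes ran the other way and were lowest in these hearts. The cardiomyocyte markers were lowest in miR-19a/19b mimic replicate 3 for 12 of 12 genes. Their mean log2 level, relative to the control mimic hearts, was 0.03, -0.14 and 0.10 in the control mimic hearts and 0.54, 0.41 and -0.95 in the miR-19a/19b mimic hearts. In each group, the heart with the lowest cardiomyocyte level had the highest level of both gene sets. With the cardiomyocyte level of each heart as a covariate, chosen after seeing the data, 7 of the 42 genes were higher at an unadjusted p under 0.05, where 4.36% of all genes were, with 0 at an adjusted p under 0.05. These were Cdc45, Pcna, Tk1, Plk1, Cenpa, Birc5 and Cdc20. The mean cardiomyocyte level differed by -0.0003 between the groups, so this covariate could change the errors but hardly the fold changes. The macrophage markers, 12 of 12 present, had mean log2 levels of -0.04, 0.07 and -0.03 in the control mimic hearts and -0.43, -0.27 and 0.12 in the miR-19a/19b mimic hearts, highest in the same heart of each group as the mitosis genes. Their summed normalized counts ranged from 84251 to 97740 in the control mimic and from 68189 to 104265 in the miR-19a/19b mimic hearts. The lymphocyte markers were also highest in these hearts, with mean log2 levels of 0.15, 0.18 and -0.33 for control mimic and -0.59, -0.74 and -0.22 for miR-19a/19b mimic. Endothelial, fibroblast, neutrophil and smooth muscle markers did not have this order in both groups. The endothelial markers were lowest in control mimic replicate 2, with 0.18, -0.10 and -0.09 for control mimic and -0.01, 0.07 and 0.0039 for miR-19a/19b mimic. The fibroblast markers were highest in control mimic replicate 3 within their group, with -0.13, 0.02 and 0.10 and then -0.09, -0.27 and 0.12. The neutrophil markers had 0.09, -0.03 and -0.06 and then -1.61, -0.29 and 0.25, and the smooth muscle and pericyte markers 0.02, -0.16 and 0.15 and then -0.09, -0.32 and -0.24. The erythroid genes had -0.03, -0.32 and 0.36 and then -0.30, -0.28 and -1.08, lowest in the hearts in which the cardiomyocyte markers were lowest. The fibroblast markers, 10 of 10 present, summed to 749791 to 929261 in the control mimic and 622005 to 1015313 in the miR-19a/19b mimic hearts, and the endothelial markers, 8 of 8, to 26795 to 34185 and 29593 to 30786. In the same order, the summed counts of 8 neutrophil markers were 1706 to 2038 and 838.1 to 2588, of 8 lymphocyte markers 246.6 to 341.6 and 174.2 to 300.0, of 8 smooth muscle and pericyte markers 36355 to 47506 and 34414 to 40772, and of 8 erythroid genes 4157 to 5403 and 2625 to 5033. No marker of these lists was at 0 in all hearts. The part of these cells in the levels of the 42 genes was not tested.

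**Figure D5:**
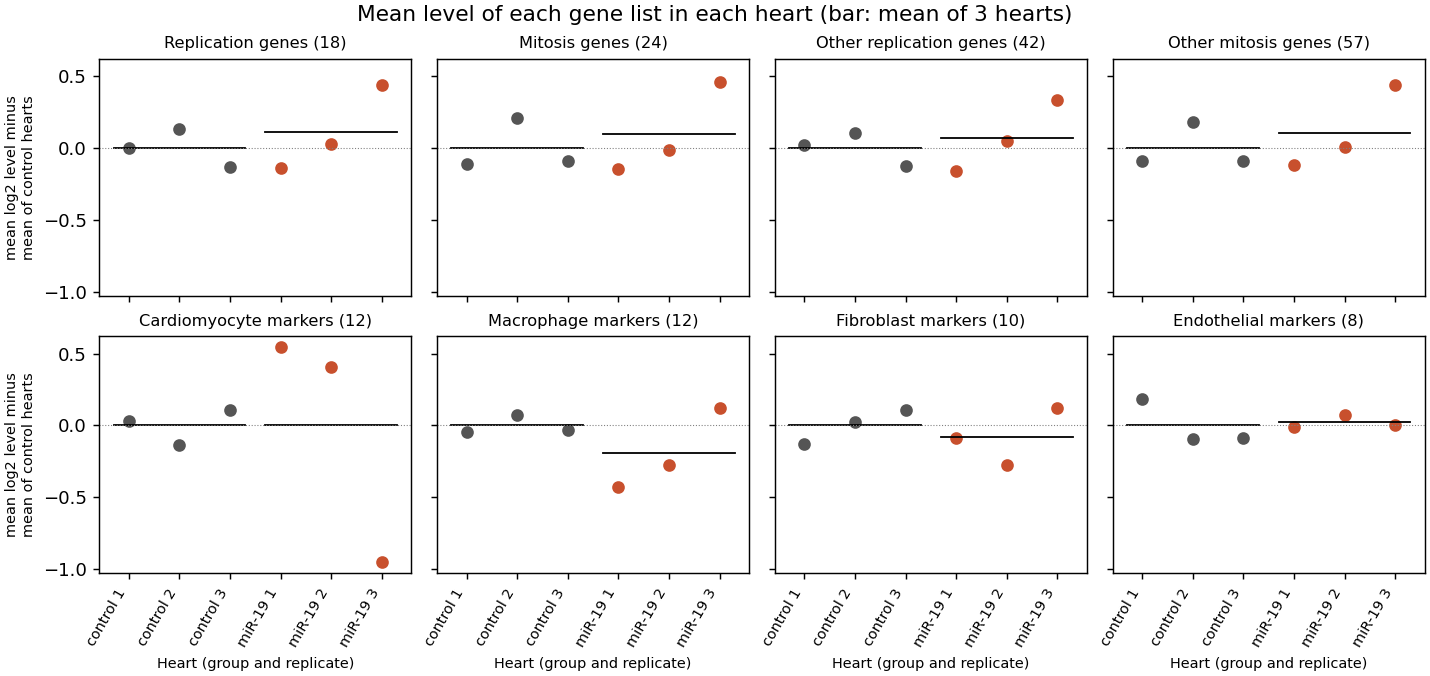
Mean log2 level of 8 gene lists in each heart, relative to the mean of the control mimic hearts (vertical axis, log2 scale; grey points for control mimic, red for miR-19a/19b mimic, bar for the mean of 3 hearts). The replication and mitosis genes are highest in miR-19a/19b mimic replicate 3, at 0.44 and 0.46, where the cardiomyocyte markers are lowest, at -0.95.

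Most other genes of the same processes were also highest in miR-19a/19b mimic replicate 3. Of 42 further replication genes, 0 passed the test, 27 were above 0 and 15 below, the median log2 fold change was 0.055, and 32 were highest in miR-19a/19b mimic replicate 3 (76.2%). The flap endonuclease gene Fen1 had the highest value, at 0.44, from means of only 3.2 ± 3.3 and 3.8 ± 2.5 normalized counts (SD, n = 3), and Rpa3, a subunit of the single-strand binding protein, the lowest, at -0.17. Of 57 further mitosis genes, 1 was higher at an unadjusted p under 0.05, where 1.39% of all genes were. Of the 57, 50 were above 0 and 7 below, the median was 0.12, and 49 were highest in miR-19a/19b mimic replicate 3 (86.0%). The 1 gene past this threshold was Cenpm, of the inner kinetochore. It had 137.0, 149.3 and 140.1 normalized counts in the control mimic hearts and 157.1, 192.8 and 248.1 in the miR-19a/19b mimic hearts. Its groups did not overlap, as for 3.90% of all genes with miR-19a/19b mimic higher. Another 1 of the 57 was apart with miR-19a/19b mimic lower, as were 5.30% of all genes. Cenpm is named by its limma p. The log2 fold change of Cenpm was 0.46 (SE 0.18), with a limma adjusted p of 0.9996. Fam83d, of the spindle, had the lowest value, at -0.18.

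Of 17 regulators of the cycle, 0 passed the test, the median log2 fold change was 0.01, and 8 were highest in miR-19a/19b mimic replicate 3. Cdkn1c, an inhibitor of cyclin-dependent kinases, had the highest value at 0.21, and Lin54, of the complex that binds CHRs, the lowest at -0.13. Ccnb1, Cdk1 and Ccnd1 were measured by the study with qRT-PCR. The paper reports that all of them were higher in infarcted hearts that received the miRNA mimics than in controls. They are listed here for that reason and are no independent choice of genes. In the RNA-seq values 2 of these 3 genes had a log2 fold change above 0 and 1 had one below 0, and 0 passed the test. Why Ccnd1 differed in direction was not tested. Ccnb1, the cyclin of mitotic entry, had 632.2, 759.3 and 635.3 normalized counts in the control mimic hearts and 612.2, 700.0 and 913.7 with miR-19a/19b mimic, which gave a log2 fold change of 0.12. Its partner Cdk1 had a log2 fold change of 0.03. Ccnd1, the cyclin of the G1 phase, had 1186, 1179 and 1016 normalized counts in the control mimic hearts and 1008, 1091 and 926.7 with miR-19a/19b mimic, which gave a log2 fold change of -0.16. It was the 1 of these 3 genes that was lowest in miR-19a/19b mimic replicate 3.

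Some of the 42 counts may hold reads of other genes. Taken from deposited start to end, introns included, 15 of the 42 genes overlap another gene, 4 of them on the same strand. The sources used here do not say whether strand was used in counting. In this way Gins2 shares 2758 bases with Gse1, Kif20a shares 2315 with Cdc23 and Prc1 shares 21810 with Rccd1, all on the other strand. The bases from which reads could be shared can be fewer. The 21810 bases are the whole span of Prc1, whose gene model has only 8225 bases. Between transcripts, the stretch found at 100% identity was 2758 bases for Gins2 and Gse1 and 979 for Kif20a and Cdc23. Pcna has a copy, Pcna-ps2, that is 99.2% identical over 781 bases and had a mean of 10.0 normalized counts, against 2286 for Pcna. Mcm7 has a copy, Gm5487, 97.7% identical over 2157 bases, and Uhrf1 has one, Gm5648, 98.3% identical over 1590 bases. Cdc6, Rrm2 and Tyms also have stretches over 95% identical to other transcripts. Their values are uncertain by the reads that such copies take or give.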

How the data were processed

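Polyadenylated RNA of the ventricles was sequenced as read pairs. The authors aligned the reads with STAR 2.5.1b and counted them per gene with HTSeq 0.6.0, and the submitters' notes also name DESeq2 1.10.1 and mm9. The coordinates in the deposited table were those of GRCm38 (of 25884 gene identifiers found in GENCODE M21, 82.7% had the same start and end there). The signal that the authors deposited is a normalized count, the reads of a gene over its library's size factor (0.905 to 1.16), and 100% of the values were whole reads within 0.001 once multiplied back. The paper names edgeR with adjusted p-values for its own test, and reports genes that differed between these groups with statistical significance. By limma and by edgeR as run here, 0 of all genes had an adjusted p under 0.05. Why the results differ was not tested. A table of the authors' own fold changes and p-values was not used.

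The labels give the groups and say no more than separate libraries, so p-values measure the spread between these samples. limma 3.58.1 (R 4.3.3, trended prior) was run on log2(normalized count + 1) for genes with a mean of at least 1, with Benjamini-Hochberg adjustment over all of them. This scale understates changes of genes with few reads. Calls needed an adjusted p under 0.05, and genes were, since fewer than 50 passed, also counted at an unadjusted p under 0.05. The alternatives were edgeR 4.0.16, DESeq2 1.42.0 and limma-voom on recovered reads, other scalings, filters and a pseudocount of 0.1, a replicate block, each heart left out and, added after seeing the data, a cardiomyocyte marker covariate. On simulated reads with 200 genes changed 2-fold, limma recovered 87.5% of them. The simulated hearts had the same relative spread beyond counting for every gene, and none stood apart from its group. The share recovered therefore does not carry over to the hearts measured here, or to changes smaller than 2-fold.

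The members, lists and tests were chosen with earlier results of these data known, the skeletal muscle list from such results. All 42 members are named. Values in each heart are given for the 3 most abundant per kilobase and the 3 with the smallest limma p among replication and among mitosis genes, and for Aurkb and Mki67. From other cell cycle lists the genes past the threshold, or else the 1 with the largest change in each direction, are named, and such picks among the cell type markers are not printed. Copies were sought by BLAST at 95% identity over 200 bases. Read errors cover counting only.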

Additional observations from a re-analysis of the deposited data

How the results depend on the processing

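With the replicate number as a block, 0 members passed the threshold and the medians were 0.10 and 0.12. The labels do not say that the numbers pair the hearts. The deviations of same-numbered hearts correlated at -0.01, -0.02 and -0.12, and those of differently numbered hearts at -0.10 to 0.12. These values cannot decide whether hearts were paired, because the deviations of the 3 hearts of a group sum to 0 for each gene. The medians of both sets lay above 0 under every pseudocount, filter, scaling and test run, at 0.08 to 0.12 for replication and 0.09 to 0.12 for mitosis. With each heart left out in turn they ranged from -0.074 to 0.24 and from -0.096 to 0.21, below 0 without miR-19a/19b mimic replicate 3. The mitosis median less the replication median ranged from -0.070 to 0.037 with a heart left out, and was -0.0023 with edgeR. The count of members past an unadjusted p under 0.05 ranged from 0 to 6 with a heart left out (6 without miR-19a/19b mimic replicate 1), and was 7 with the cardiomyocyte covariate. The count of members whose groups did not overlap ranged from 1 to 9 with a heart left out (2.4% to 21.4% of the 42, where 15.5% to 31.4% of all genes tested were apart), and was 0 with scaling to total reads, which placed Cdc45 among the overlapping genes. Without miR-19a/19b mimic replicate 3, 8 of these 9 members were lower with miR-19a/19b mimic and 1 was higher. With any other heart left out, every member whose groups were apart was higher. The causes were not tested. Single members kept their sign under all other scalings and tests, except 1 gene with total reads, and 3 to 29 of the 42 changed sign with a heart left out. Each value rests on at least 151 reads, and the SD between hearts was above the counting error for 42 of 42 members with miR-19a/19b mimic and for 38 of 42 with control mimic, the others being Mcm2, Cdc6, Cdc45 and Plk1.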
